A study of Rattus norvegicus with 132 samples.

Results

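Solute carriers are the membrane proteins that move amino acids, sugars, organic ions, metals and other small solutes across cell membranes, and 174 of their genes were followed here through 4 areas of the rat kidney. The members were chosen by 3 criteria: a symbol that began with Slc and a digit or with Slco, no place in the mitochondrial Slc25 family or among 6 genes left out by name (Slc7a13, Slc3a1, Slc12a1, Slc5a3, Slc34a1 and Slc2a5), and a signal over 2 times the negative control probe in at least 10% of the regions of interest (ROIs). Of 216 rows with such a symbol, 31 were Slc25 genes and 6 were the named genes, which left 179 rows. Of these, 174 passed the filter on low values, out of 8827 of the 9271 genes in the table that passed it. The 5 rows below it were Slc13a5, Slc35a3 and Slc5a6 (each over the limit in 9.85% of ROIs), Slc5a1 (9.09%) and Slc33a1 (8.33%), while Slc16a14 and Slc43a3 lay just inside it at 10.6%. The filter looked at all ROIs, and 166 members also passed it in Sham ROIs alone. The 8 that did not were Slc16a14, Slc1a5, Slc22a23, Slc30a8, Slc30a9, Slc34a2, Slc43a3 and Slc7a11. Slc34a2, Slc7a11 and Slc1a5 were over the limit in 2.78%, 5.56% and 5.56% of Sham ROIs, against 51.4%, 71.4% and 40% in RM. In RM-HS the shares were 31.25%, 31.25% and 34.38%, and in HS 13.8%, 6.90% and 6.90%. These 3 passed mainly through RM and RM-HS, so their rises there are given as a description only. The choice by symbol brought in Slc9a3r1, which encodes a scaffold protein, and Slc7a6os, which is named for its position opposite a transporter gene.

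The tissue was formalin-fixed kidney of rats in 4 groups, named Sham, RM, HS and RM-HS in a study of trauma-induced acute kidney injury. The labels do not spell out RM and HS, and give no strain, age, dose or time after injury. RM-HS carries both abbreviations and Sham is the control of each comparison. Each group held 3 rats, and ROIs were picked by hand in cortex, corticomedullary junction, glomeruli and medulla, and read with whole-transcriptome probes designed for mouse genes on a digital spatial profiler, which counts barcodes released from probes bound to RNA in the section. The 132 ROIs comprised 36 of Sham, 35 of RM, 29 of HS and 32 of RM-HS.

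The kidney tubule recovers filtered solutes through transporters that differ from segment to segment. The early proximal tubule in the cortex takes up sodium, glucose and phosphate, its straight part near the junction carries many amino acid and organic ion transporters, and the loop of Henle and distal tubule handle mostly salt. Some solute carriers are not tied to a segment and are known to be induced in stressed or nutrient-starved cells, such as the cystine carrier Slc7a11 and the neutral amino acid carrier Slc38a2.

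Between 17894 and 2305964 reads were recovered per ROI, with glomerular ROIs the shallowest (medians of 49405 to 143427). The negative probe read 11.7 to 35.1 (median 21.7) on the Q3-normalized scale, in which each ROI is scaled to its 75th percentile, and 95 members had a highest Sham area mean under 50, so many members lay not far above background. Of 6 measured podocyte markers, 5 were higher in Sham glomeruli than in cortex. Ptpro averaged 119 in Sham glomeruli against 40.2 in cortex, while Podxl, the exception, was lower there (39.5 against 51.5). HS ROIs all came from plate E, which also held 1 of the 3 Sham well runs, and RM and RM-HS from plate C with the other Sham runs, except 1 RM glomerular ROI on plate A that was left out of the fits. HS run 3, one of 3 runs of neighbouring HS wells, stood apart in cortex: Slc4a4, the sodium bicarbonate cotransporter of the proximal tubule, averaged 1224 there against 365 and 311 in the other HS runs. HS run 3 had no medulla ROI, so HS medulla rests on 2 runs. The labels do not tie ROIs to rats, and with 3 rats per group several ROIs share an animal, so all p-values over ROIs below are too small.

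Most members had no preferred area in Sham kidney. A member was mapped to an area when its geometric mean there, taken as the mean of log2(value + 1), was at least 1.5 times that of the next area, and 21 members met this: 8 cortical, 10 junction, 1 glomerular and 2 medullary members, against 153 that were shared. The map describes the Sham ROIs that made it and carries no test. All values in this paragraph are means ± SD of the Q3-normalized signal over 9 Sham ROIs per area. In cortex the organic anion transporter gene Slc22a8 reached 191 ± 89.1, with 44.2 ± 7.90 at the junction. Slc12a3, the thiazide-sensitive sodium chloride cotransporter of the distal tubule, reached 205 ± 59.3 in cortex and 66.6 ± 26.1 in glomeruli. Slc5a2, the glucose transporter of the early proximal tubule, stood at 96.3 ± 49.8 in cortex, and Slc4a4 at 310.4 ± 158. The cortical members also included Slc34a3 (phosphate), Slc8a1 (sodium-calcium exchange) and Slc6a19 (neutral amino acids).

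The junction held the widest leads. Slc22a2, an organic cation transporter, had a mean of 417 ± 84.6 at the junction and 62.8 ± 8.29 in cortex, a 6.49-fold lead, and Slc6a18, a neutral amino acid transporter, 480.2 ± 102 against 74.1 ± 12.0. Slc7a12 and Slc38a3, a pair of amino acid transporter genes, led by 4.85 and 4.16 times, and Slc23a1, the ascorbate transporter, by 3.57 times. Slc15a2 (peptides), Slc17a3 (organic anions and urate), Slc16a4 (monocarboxylate family), Slc47a1 (organic cation efflux) and Slc9a3r1 completed the junction group. In glomeruli only Slc44a2, a choline transporter-like gene, met the lead, at 83.5 ± 29.0 against 48.0 ± 3.99 in medulla. The medulla had Slc4a7, a sodium bicarbonate cotransporter, at 101 ± 21.2, and Slc16a7, a monocarboxylate transporter with high affinity for pyruvate, at 107 ± 44.9. Slc22a6, the other main renal organic anion transporter, was shared between cortex (146 ± 80.3) and junction (109 ± 14.5). With a lead of 2-fold, 4 cortical and 6 junction members remained mapped and none in glomeruli or medulla.

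**Figure D1:**
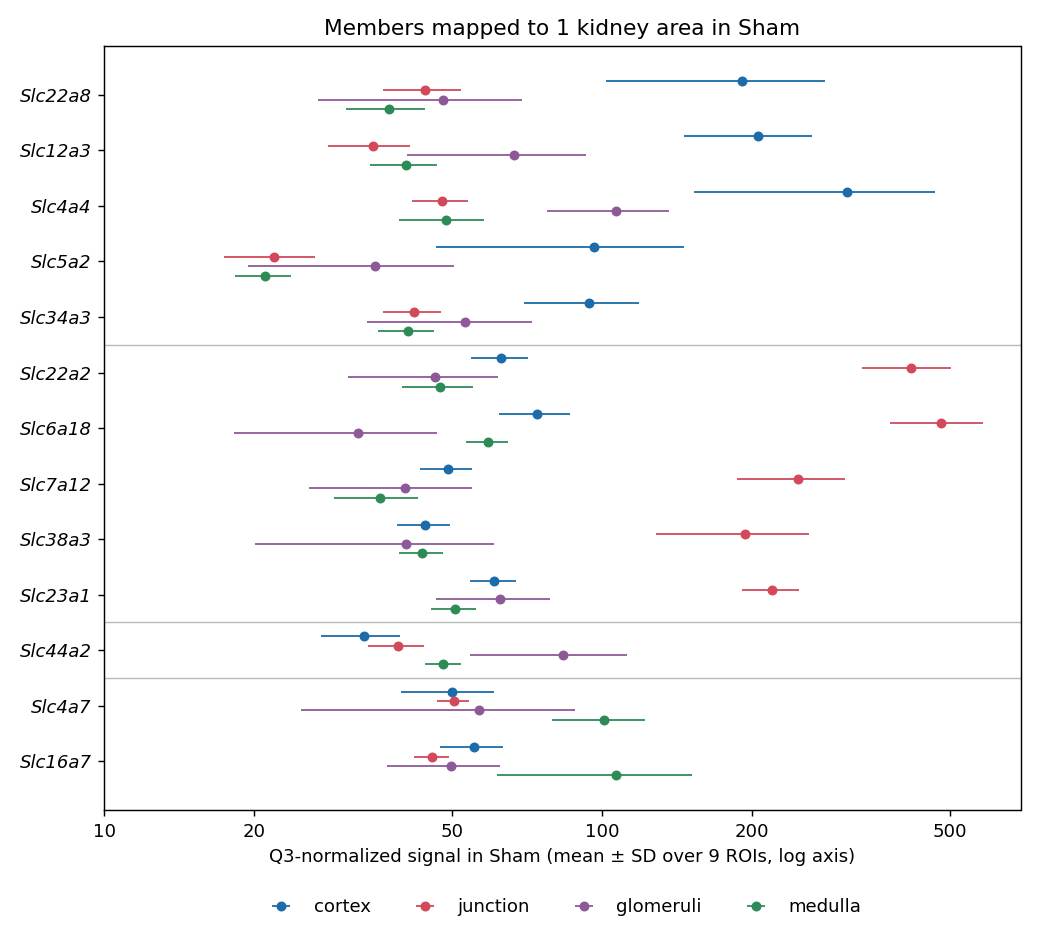
Mean Q3-normalized signal ± SD (log axis) in Sham of the mapped members with the widest leads, up to 5 per area and 13 in all, one colour per area and 9 ROIs per point; grey lines part the area groups. Slc22a2 and Slc6a18 stand far to the right at the junction, while the 2 medullary members lead by less than 2-fold.

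Mapped members were also higher in their areas in the injured kidneys, whose ROIs had no part in the map. In the fit over RM, HS and RM-HS ROIs, all 8 cortical, 10 junction, 1 glomerular and 2 medullary members were higher in their own area than in the mean of the other 3 areas. Unlike the map, this test does not ask whether an area exceeded the next highest area. The log2 leads over the mean of the other 3 areas ran from 0.82 (Slc8a1) to 2.77 (Slc4a4) in cortex and from 0.78 (Slc9a3r1) to 3.19 (Slc22a2) at the junction. They were 0.81 for Slc44a2 in glomeruli, 1.32 for Slc4a7 and 0.26 for Slc16a7 in medulla. Against the mean of the other 3 areas, cortex was higher for 72 of all 174 members, the junction for 40, glomeruli for 10 and medulla for 35. The shares of all genes tested were 33%, 23.2%, 5.96% and 19%, and a gene could count for more than 1 area. The glomerular count was 6 without HS run 3, 5 without RM-HS run 3 and 36 after quantile normalization, which also put the cortical count at 45. That scaling moved the median lead of all genes from 0.11 to -0.02 in cortex and from -0.20 to 0.01 in glomeruli. A map drawn from Sham run 3 alone placed 37 members (15, 11, 5 and 6 in cortex, junction, glomeruli and medulla), of which 15, 10, 2 and 5 were higher in their area in injured ROIs.

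Averaged over the 4 areas, few members passed in the main fit. RM raised 7 members and lowered 2, and RM-HS raised 9 and lowered 2 (adjusted p under 0.05 by limma with Benjamini-Hochberg adjustment over 8827 genes, n = 34 RM or 32 RM-HS against 36 Sham ROIs). Because of the plate term, these averages rested mainly on the 24 Sham ROIs of plate C, and the HS average on the 12 of plate E. The fit within plate C therefore repeats much of the same comparison. Of all genes tested, 7.52% rose and 0.782% fell in RM, and 5.99% rose and 0.838% fell in RM-HS. The members' 7 of 174 rises in RM (4.02%) lay below that background share. The median log2 change over the members was -0.09 in RM and -0.04 in RM-HS, and -0.06 and -0.02 over all genes. In 123 members no change passed in any injury and area. The share of all genes without any such change is not given, so this count shows nothing particular to the members.

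Slc38a2, which imports neutral amino acids by sodium cotransport, rose in RM by 1.06 ± 0.15 (log2, ± SE; adjusted p = 2.18e-09) and 34 of 34 RM ROIs exceeded the mean of Sham in the same area. Slc3a2, the heavy chain that several amino acid exchangers need to reach the membrane, rose by 0.90 ± 0.15 in RM and 0.64 ± 0.15 in RM-HS. Slc6a8, the creatine transporter, rose by 0.75 ± 0.17 in RM and by 0.90 ± 0.17 in RM-HS, where 32 of 32 ROIs exceeded the Sham mean. Slc38a2, Slc26a1 (sulfate and oxalate exchange) and Slc39a14 (zinc and iron uptake) also rose in RM-HS, by 0.83, 0.63 and 0.48, after 0.61 and 0.50 in RM for the latter pair. Slc7a11, which takes up cystine in exchange for glutamate, rose by 0.72 ± 0.16 in RM, and its 0.34 ± 0.16 in RM-HS did not pass (adjusted p = 0.237). Slc34a2, a phosphate cotransporter, rose in RM (0.77). The rises of Slc7a11 and Slc34a2 are a description, since both passed the filter on low values mainly through RM and RM-HS. In RM-HS, Slc5a8, a sodium-coupled monocarboxylate transporter, rose by 0.65, Slc9a3r1 by 0.64, Slc4a4 by 0.54 and Slc2a1, a glucose transporter, by 0.44.

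The falls were Slc16a7 in RM (-0.67 ± 0.16) and RM-HS (-0.52 ± 0.16), its relative Slc16a13 in RM (-0.51), and Slc23a1 in RM-HS (-0.44). RM and RM-HS were set against the same Sham ROIs, and no test compared them with each other. How many members passed depended on single runs: the RM count of 9 became 5 without Sham run 1, 3 without Sham run 2, 17 without HS run 2 and 35 without HS run 3, and the RM-HS count of 11 became 2, 3, 6, 3 and 28 without Sham run 1, Sham run 2, RM-HS run 2, RM-HS run 3 and HS run 3. The split into rises and falls depended on the scaling, with 15 and 12 in RM and 17 and 11 in RM-HS after quantile normalization, and 20 and 41 and 23 and 16 by edgeR on whole reads recovered from the values. Within plate C there were 16 rises and 24 falls in RM and 19 rises and 13 falls in RM-HS, and with log2 values averaged by well run 10 rises and 4 falls and 9 rises and 2 falls. No change named here reversed its sign under those scalings. Shares of all genes under such other fits, here and below, are not given except by area within plate C. The moved counts therefore show nothing particular to the members. Slc6a8 did not pass in RM after quantile normalization (0.32, adjusted p = 0.0837). Without a plate term, Slc4a4 (0.47) and Slc9a3r1 (0.49) did not pass in RM-HS. In RM the rises and falls that did not pass when 1 run was left out were Slc16a13 (-0.55 to -0.43 without RM run 2 or Sham runs 1 or 2), Slc16a7 (-0.54 without Sham run 2), Slc26a1 (0.52 to 0.61 without RM run 1 or Sham runs 1 or 2), Slc34a2 (0.70 without Sham run 2), Slc39a14 (0.48 to 0.51 without Sham runs 1 or 2), Slc6a8 (0.57 without Sham run 1) and Slc7a11 (0.61 without Sham run 2). In RM-HS they were Slc16a7 (-0.55 to -0.38 without RM-HS runs 2 or 3 or Sham run 2), Slc23a1 (-0.52 to -0.36 without RM run 3, RM-HS runs 1 or 3 or Sham runs 1 or 2), Slc26a1 (0.63 without Sham runs 1 or 2), Slc2a1 (0.42 to 0.46 without RM-HS runs 1, 2 or 3 or Sham runs 1 or 2), Slc39a14 (0.40 to 0.50 without RM-HS runs 2 or 3 or Sham runs 1 or 2), Slc3a2 (0.46 to 0.53 without RM-HS run 3 or Sham run 1), Slc4a4 (0.48 to 0.59 without RM runs 1, 2 or 3, RM-HS runs 1, 2 or 3 or Sham runs 1 or 2), Slc5a8 (0.45 to 0.79 without RM-HS run 3 or Sham runs 1 or 2), Slc6a8 (0.72 without Sham run 1) and Slc9a3r1 (0.59 to 0.68 without RM-HS runs 1, 2 or 3 or Sham runs 1 or 2). Markers of several cell types moved with the averages: Flt1 (endothelium) and Cd74 (macrophage) rose and Slc12a1 (loop) and Aqp2 (collecting duct) fell in RM, and Ass1 (proximal tubule), C1qc and Cd74 rose and Aqp2 fell in RM-HS. Their part in the members' changes was not tested.

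**Figure D2:**
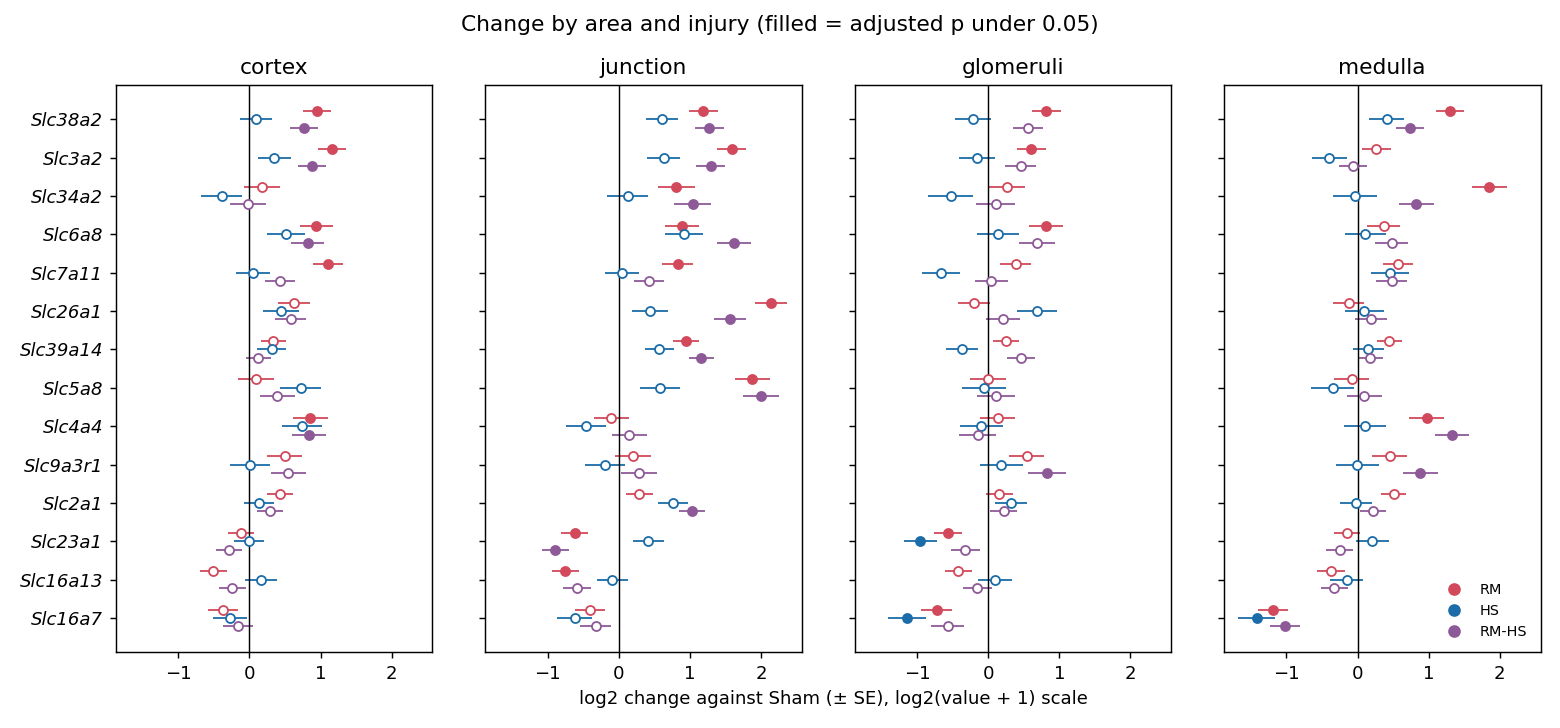
Log2 change against Sham ± SE for the 14 members that passed in the RM or RM-HS average, 1 panel per area and 1 colour per injury; filled points had an adjusted p under 0.05. Slc38a2 lies to the right of 0 in every area in RM, Slc26a1 and Slc5a8 mainly at the junction, and Slc16a7 lies furthest left in medulla.

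The largest changes of any member were at the corticomedullary junction, where RM raised 10 members and lowered 4, and RM-HS raised 9 and lowered 5. Of all genes tested there, 4.86% rose and 0.782% fell in RM, and 5.15% rose and 0.997% fell in RM-HS, so falls were 2.30% and 2.87% of the members. Each RM and RM-HS group had 8 junction ROIs and Sham had 9, and the 3 values that follow each gene are the lowest, median and highest Q3-normalized signal. Slc26a1, the basolateral exchanger of sulfate and oxalate in the proximal tubule, read 36.3, 45.4 and 56.2 in Sham, 138, 212 and 237 in RM and 96.8, 130.4 and 201 in RM-HS. Every RM and RM-HS ROI was above every Sham ROI. Its log2 change was 2.14 ± 0.23 in RM (adjusted p = 2.68e-14) and 1.56 ± 0.23 in RM-HS (adjusted p = 2.33e-08), and 2.18 and 1.59 within plate C. HS ROIs read 49.0, 61.4 and 88.4, overlapping Sham.

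Slc5a8, which recovers lactate and other short monocarboxylates from the filtrate, read 49.3, 59.2 and 82.3 in Sham, 148, 219.9 and 259 in RM and 129, 229.8 and 386 in RM-HS, again without overlap. The log2 changes were 1.88 ± 0.25 and 2.0 ± 0.25 (adjusted p = 1.65e-09 and 1.18e-10). Within RM-HS the runs differed, with means of 149.9, 229.8 and 368. Slc3a2 read 46.3, 65.6 and 77.8 in Sham, 129.8, 167 and 253 in RM and 95.4, 140.4 and 189.7 in RM-HS, changes of 1.59 ± 0.20 and 1.29 ± 0.20. Slc38a2 read 33.5, 46.7 and 61.3 in Sham, 81.4, 102 and 112 in RM and 74.1, 102 and 155 in RM-HS. Neither gene's RM or RM-HS ROIs overlapped Sham. Slc39a14 read 49.0, 61.1 and 68.8 in Sham and rose by 0.94 ± 0.18 in RM and 1.16 ± 0.18 in RM-HS, where its 8 ROIs spread from 77.7 to 269.

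Slc6a8 read 99.2, 112 and 145 in Sham and 242, 350.0 and 515 in RM-HS (change 1.62 ± 0.24, adjusted p = 3.77e-08). Its RM change was 0.89 ± 0.24, with RM ROIs reaching down among the Sham values, and all 9 HS ROIs (189, 231 and 292) lay above Sham although the HS change of 0.92 ± 0.27 did not pass (adjusted p = 0.165). In RM the other rises were Slc17a3 (1.0), Slc2a2, the basolateral glucose transporter (0.91), Slc7a11 (0.83) and Slc34a2 (0.81). In RM-HS they were Slc34a2 (1.04), Slc2a1 (1.03) and Slc6a6, the taurine transporter (0.86). The Slc7a11 and Slc34a2 rises are a description, since both passed the filter on low values mainly through RM and RM-HS. Slc6a8 did not pass in RM after quantile normalization (0.43), nor Slc34a2 in RM (0.74) and Slc6a6 in RM-HS (0.71) without a plate term. The RM count of 14 became 8 without RM run 3 and the RM-HS count of 14 became 9 without Sham run 2. By quantile normalization the RM split was 12 and 9, and by edgeR 23 and 17. Within plate C there were 15 rises and 8 falls in RM and 11 rises and 8 falls in RM-HS. Of all genes, 7.9% rose and 2.78% fell there in RM, and 7.84% and 2.75% in RM-HS. With log2 values averaged by well run there were 8 rises and 2 falls in RM and 8 rises and 0 falls in RM-HS. In RM the changes lost without 1 run were Slc15a2 (-0.78 to -0.61 without RM run 3 or Sham run 3), Slc16a13 (-0.76 to -0.70 without RM runs 2 or 3 or Sham run 1), Slc23a1 (-0.63 to -0.46 without RM runs 1 or 3 or Sham runs 1 or 3), Slc34a2 (0.70 to 0.88 without RM runs 1 or 3, RM-HS run 2 or Sham runs 1, 2 or 3), Slc52a3 (-0.66 to -0.62 without RM run 2 or Sham run 2), Slc6a8 (0.73 to 0.84 without RM runs 1 or 3 or Sham run 1) and Slc7a11 (0.63 to 0.73 without RM run 3 or Sham run 2). In RM-HS they were Slc15a2 (-0.85 to -0.53 without RM-HS runs 1 or 2 or Sham runs 1, 2 or 3), Slc16a9 (-0.70 to -0.67 without RM-HS run 3 or Sham run 1), Slc34a2 (0.74 to 0.96 without RM-HS run 3 or Sham run 2), Slc52a3 (-0.67 to -0.62 without RM-HS run 3 or Sham run 2), Slc6a18 (-0.83 to -0.38 without RM-HS run 1 or Sham runs 1, 2 or 3) and Slc6a6 (0.66 to 0.97 without RM-HS runs 2 or 3 or Sham runs 1, 2 or 3).

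RM lowered Slc23a1, Slc15a2, Slc52a3 and Slc16a13 at the junction, and RM-HS the first 3 of these with Slc6a18 and Slc16a9. Slc23a1 read 186, 219 and 259 in Sham, 115, 142 and 202 in RM and 93.1, 126 and 150.4 in RM-HS, and fell by 0.62 and 0.89 on the log2 scale (adjusted p = 0.0299 and 0.000285). All RM-HS ROIs were below Sham, while RM overlapped it. Slc15a2 read 63.5, 88.0 and 147 in Sham and 44.1, 51.1 and 61.2 in RM, without overlap (log2 change -0.81 ± 0.22). Its highest Sham values came from the run on plate E (mean 132, against 73.3 and 85.4), and without that run neither its RM fall nor its RM-HS fall (-0.73) passed. Slc52a3, a riboflavin transporter, fell by 0.67 in RM and 0.67 in RM-HS, with no overlap in either. Slc16a13 also fell in RM (-0.75), and Slc6a18 (-0.74) and Slc16a9, which carries carnitine (-0.73), in RM-HS. With log2 values averaged by well run, Slc23a1 and Slc52a3 did not pass in RM, nor did any of the falls in RM-HS. Fewer cells of a type and less RNA per cell cannot be told apart in such ROIs. The 4 measured proximal tubule markers (Aqp1, Ass1, Cubn, Fbp1) summed to 656 to 1236 in Sham, 780.1 to 1066 in RM and 602 to 1227 in RM-HS junction ROIs, and 0 of them passed in either injury there. Aqp1 made up most of that sum in Sham, with a junction mean of 731.5 against 62.0 for Ass1, 54.9 for Cubn and 51.9 for Fbp1. Of 4 loop of Henle markers, Egf and Slc12a1 fell in both. Of 3 collecting duct markers, Aqp2 fell in RM-HS, and the 3 summed to 166 to 240.0 in Sham, 108 to 154 in RM and 114 to 201 in RM-HS. The part of these markers in the results was not tested.

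**Figure D3:**
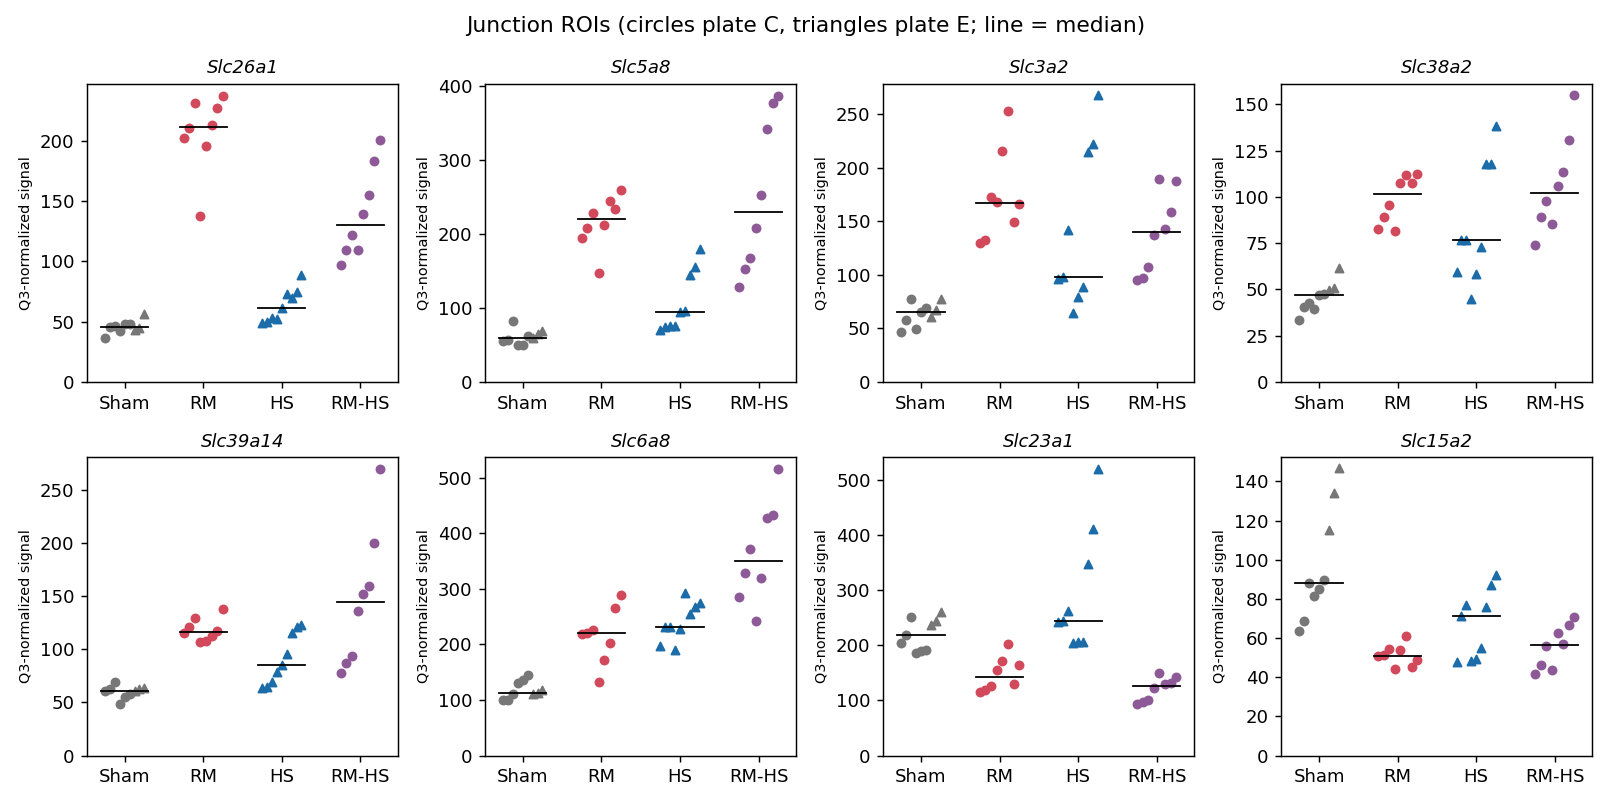
Q3-normalized signal of single junction ROIs for 8 members in Sham (n = 9), RM (n = 8), HS (n = 9) and RM-HS (n = 8); circles are plate C, triangles plate E and black lines medians. Slc26a1, Slc5a8, Slc3a2, Slc38a2 and Slc39a14 show RM and RM-HS ROIs above all Sham ROIs, and Slc23a1 and Slc15a2 lie lower.

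Rat promoter windows were at hand for 134 of the 174 members and for 11 of the 14 that passed in an average, matched by symbol to RefSeq (build GRCr8), each 300 bases from 250 before to 50 after the annotated start. They are shown for 3 members that rose in RM, because oxidative and amino acid stress are known to act on some genes, such as Slc7a11 and Slc38a2, through short motifs. Capitals mark any match, on either strand, to TGACNNNGC (the core of the antioxidant response element that NRF2 binds), TGATGNAAT (the core of the ATF4 and C/EBP composite element) or TGACTCA (the AP-1 site, which can overlap the first). Slc26a1 lies at chr14:1184721-1185020 on the + strand, Slc38a2 at chr7:129742570-129742869 and Slc7a11 at chr2:136668215-136668514, both on the - strand, and each is written 5′ to 3′ along its gene.
Slc26a1: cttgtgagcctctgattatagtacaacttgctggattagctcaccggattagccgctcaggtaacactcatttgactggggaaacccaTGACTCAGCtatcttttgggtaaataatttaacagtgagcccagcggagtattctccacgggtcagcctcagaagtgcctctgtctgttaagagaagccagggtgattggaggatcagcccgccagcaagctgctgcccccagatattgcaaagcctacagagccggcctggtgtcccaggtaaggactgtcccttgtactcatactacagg
Slc38a2: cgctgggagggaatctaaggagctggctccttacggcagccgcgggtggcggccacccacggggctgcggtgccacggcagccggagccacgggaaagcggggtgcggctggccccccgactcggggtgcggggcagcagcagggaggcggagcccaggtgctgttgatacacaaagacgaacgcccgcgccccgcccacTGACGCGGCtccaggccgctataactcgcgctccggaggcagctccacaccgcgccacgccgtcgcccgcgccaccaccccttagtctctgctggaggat
Slc7a11: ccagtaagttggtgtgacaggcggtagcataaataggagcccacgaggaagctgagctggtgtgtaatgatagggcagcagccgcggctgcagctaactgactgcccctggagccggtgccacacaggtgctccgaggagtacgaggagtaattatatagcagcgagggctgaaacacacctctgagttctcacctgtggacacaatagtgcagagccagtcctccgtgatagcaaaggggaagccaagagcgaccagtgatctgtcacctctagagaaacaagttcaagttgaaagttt
The match in Slc26a1, TGACTCAGC at -162 to -154 from the start, fits both the antioxidant and the AP-1 letters, and that in Slc38a2 is TGACGCGGC at -50 to -42. One of 2 windows of Slc3a2 also held TGACNNNGC. The other Slc3a2 window held no match to any of these motifs. Nor did the windows of Slc16a7, Slc23a1, Slc2a1, Slc34a2, Slc4a4, Slc5a8, Slc6a8 and Slc7a11. Among all 33469 windows, 12.1% held TGACNNNGC, 4.63% TGACTCA and 1.09% TGATGNAAT. The 12 windows of those 11 members held no TGATGNAAT, which says only that these letters are not in these windows. A match describes sequence and not binding.

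In cortex all changes that passed in RM and RM-HS were rises: 7 members in RM and 5 in RM-HS, with 9 ROIs per group. Of all genes, 5.27% rose and 0.227% fell in RM and 3.58% rose and 0.204% fell in RM-HS. At an unadjusted p under 0.05, 6 members were lower in RM and 4 in RM-HS, and edgeR counted 17 and 9 falls beside 19 and 20 rises (quantile normalization 7 and 10 beside 14 and 17). Slc7a11 read 21.1, 34.7 and 42.6 in Sham (lowest, median, highest) and 52.7, 81.3 and 107 in RM, with no overlap and a change of 1.10 ± 0.21. It passed the filter on low values mainly through RM and RM-HS, so these values are a description. In RM-HS it read 35.5, 53.4 and 73.0, and its change of 0.43 ± 0.21 did not pass. Slc13a3, a sodium-dependent carrier of dicarboxylates such as succinate, read 65.9, 100.1 and 213 in Sham, 153, 219 and 292 in RM and 148, 205 and 293 in RM-HS.

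The Slc13a3 changes were 1.16 ± 0.24 and 1.13 ± 0.24 (adjusted p = 0.000237 and 0.000617), and groups overlapped. Sham run 3 averaged 172 against 75.2 and 93.1 in the other Sham runs. Slc4a4 had the same Sham pattern (187, 237 and 507 by run) and rose by 0.86 ± 0.24 in RM and 0.84 ± 0.24 in RM-HS. Its ROIs read 177, 235 and 607 in Sham, 306, 538 and 639.7 in RM and 348, 476 and 674 in RM-HS, and overlapped. Slc3a2 (1.16 and 0.88), Slc6a8 (0.94 and 0.82) and Slc38a2 (0.95 and 0.77) rose in both injuries, and Slc17a3 (0.64) in RM. In RM the calls lost without 1 run were Slc13a3 (0.99 without Sham run 1), Slc17a3 (0.52 to 0.67 without HS run 1, RM runs 1 or 2, RM-HS runs 1 or 3 or Sham runs 1, 2 or 3), Slc38a2 (0.81 without Sham run 1), Slc4a4 (0.60 to 0.87 without RM runs 1 or 2 or Sham runs 1 or 2) and Slc6a8 (0.58 to 0.85 without RM runs 1 or 2 or Sham run 1). In RM-HS they were Slc13a3 (0.96 without Sham run 1), Slc38a2 (0.63 to 0.67 without RM-HS run 3 or Sham run 1), Slc3a2 (0.71 to 0.77 without RM-HS run 3 or Sham run 1), Slc4a4 (0.59 to 0.84 without RM-HS runs 2 or 3 or Sham runs 1 or 2) and Slc6a8 (0.46 to 0.59 without RM-HS run 3 or Sham run 1). Within plate C there were 17 rises and 2 falls in RM and 14 rises and 1 fall in RM-HS. Of all genes, 9.65% rose and 1.13% fell there in RM, and 7.74% and 0.997% in RM-HS. With log2 values averaged by well run there were 1 rise and 0 falls in RM and 0 rises and 0 falls in RM-HS. The RM count became 2 without Sham run 1, 4 without RM run 1 or RM run 2 and 12 without HS run 3. The RM-HS count became 0 without Sham run 1, 1 without RM-HS run 3 and 8 without HS run 3. After quantile normalization Slc4a4 (0.24 and 0.34) and Slc6a8 (0.30 and 0.31) passed in neither RM nor RM-HS cortex. Of 4 measured proximal tubule markers, Ass1 rose in RM-HS cortex, and the 4 summed to 222 to 665 in Sham, 308 to 508 in RM and 306 to 608 in RM-HS. Of 5 measured macrophage markers, Cd74 rose in RM cortex, where the 5 summed to 248 to 328 against 165 to 295 in Sham, and the part of both marker lists in these rises was not tested.

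**Figure D4:**
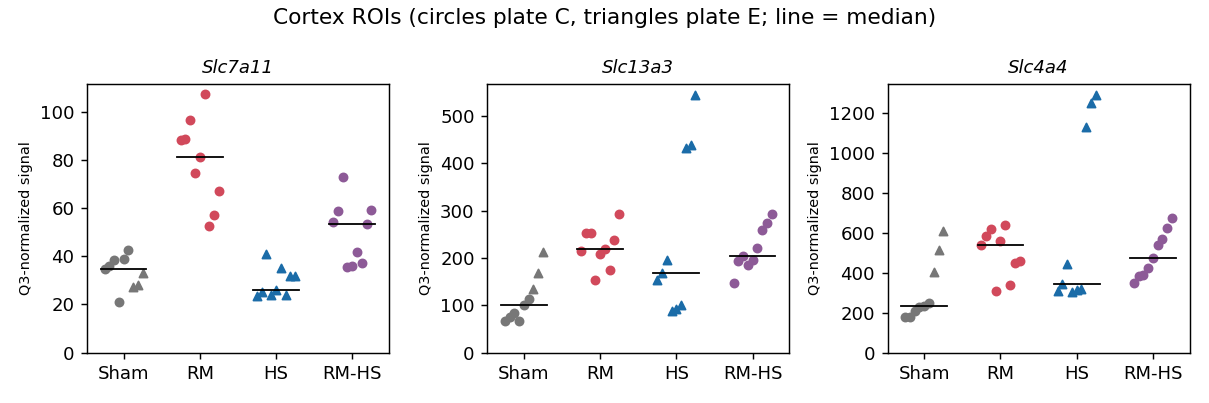
Q3-normalized signal of single cortex ROIs for Slc7a11, Slc13a3 and Slc4a4 (n = 9 per group); circles are plate C, triangles plate E and black lines medians. RM ROIs of Slc7a11 lie above all Sham ROIs, and 3 HS ROIs stand high for Slc13a3 and Slc4a4.

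In medulla a phosphate and a bicarbonate carrier rose and monocarboxylate family members fell. RM raised 4 members and lowered 4, and RM-HS raised 5 and lowered 2, where 4.84% and 3.59% of all genes rose and 1.12% and 0.906% fell. Slc34a2 read 21.3, 26.5 and 38.8 in Sham and 76.1, 92.4 and 139 in RM (lowest, median, highest of 9 ROIs each), with no overlap and a change of 1.85 ± 0.25. The RM-HS ROIs read 33.1, 44.0 and 64.9, overlapped Sham and rose by 0.83 ± 0.25. Slc4a4 read 32.6, 51.2 and 60.2 in Sham, 62.1, 89.2 and 146 in RM and 94.6, 110.2 and 181 in RM-HS, with no overlap and changes of 0.97 ± 0.24 and 1.33 ± 0.24. Slc38a2 rose by 1.30 in RM and 0.74 in RM-HS. Slc1a5, a glutamine and neutral amino acid carrier, rose by 0.88 in RM. Slc1a5 and Slc34a2 passed the filter on low values mainly through RM and RM-HS, so their rises are a description. Slc9a3r1 (0.88) and the iron transporter Slc11a2 (0.56) rose in RM-HS.

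Slc16a7 fell in medulla in all 3 injuries. Its Sham ROIs split by run, with means of 51.3 in Sham run 1, 128 in run 2 and 141 in run 3, and read 48.3, 122 and 161 overall. The injured ROIs read 34.9, 39.9 and 44.7 in RM, 38.4, 44.3 and 51.0 in RM-HS and 25.4, 43.1 and 62.5 in the 6 of HS. All RM ROIs were below Sham, and some RM-HS and HS ROIs reached Sham run 1. The changes were -1.18 ± 0.21, -1.02 ± 0.21 and -1.42 ± 0.26 (adjusted p = 8.55e-06, 0.000216 and 0.000412). Without Sham run 2 they were -0.88, -0.72 and -1.25, and the RM-HS fall no longer passed. The HS fall did not pass without Sham run 3 or without HS run 2 (-0.99 to -0.98). The same Sham ROIs put Slc16a7 on the medullary map, so its Sham level there was selected on.

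Slc16a12, which exports creatine, read 68.2, 89.0 and 110.2 in Sham, 36.8, 45.8 and 52.9 in RM and 39.6, 49.3 and 54.7 in RM-HS, with no overlap and changes of -0.84 ± 0.20 and -0.73 ± 0.20. Slc9a3, the apical sodium-proton exchanger of the proximal tubule and thick limb, fell in RM by 0.69, and Slc2a13, a proton myo-inositol carrier, by 0.61. In RM the calls lost without 1 run were Slc16a12 (-0.72 without Sham run 2), Slc1a5 (0.82 to 0.92 without RM runs 1 or 3 or Sham runs 1, 2 or 3), Slc2a13 (-0.67 to -0.50 without RM runs 1 or 3, RM-HS runs 1, 2 or 3 or Sham runs 1, 2 or 3), Slc4a4 (0.75 without RM run 2) and Slc9a3 (-0.69 to -0.58 without RM runs 1 or 2 or Sham runs 2 or 3), and in RM-HS Slc11a2 (0.42 to 0.68 without RM runs 1, 2 or 3, RM-HS runs 1, 2 or 3 or Sham runs 1 or 2), Slc16a12 (-0.69 to -0.61 without RM-HS run 2 or Sham run 2), Slc16a7 (-0.72 without Sham run 2), Slc34a2 (0.73 to 0.91 without RM-HS runs 1 or 2 or Sham runs 1 or 2), Slc38a2 (0.56 to 0.70 without RM-HS run 3 or Sham run 1) and Slc9a3r1 (0.86 to 0.93 without RM-HS runs 1, 2 or 3 or Sham runs 1 or 2). Within plate C there were 9 rises and 5 falls in RM and 12 rises and 3 falls in RM-HS. Of all genes, 7.76% rose and 2.52% fell there in RM, and 5.88% and 1.78% in RM-HS. With log2 values averaged by well run there were 2 rises and 2 falls in RM and 2 rises and 1 fall in RM-HS. Without a plate term, Slc2a13 did not pass in RM (-0.49) nor Slc9a3r1 in RM-HS (0.73), and Slc2a13 did not pass within plate C either. The RM count of 8 became 4 without Sham run 2. The RM-HS count of 7 became 3 without Sham run 1, 2 without Sham run 2 and 4 without any of the 3 RM-HS runs, and edgeR split the RM-HS calls into 20 rises and 16 falls. Of 4 measured loop of Henle markers, 3 fell in RM medulla (Egf, Kcnj1 and Slc12a1) and 1 in RM-HS (Slc12a1), and their sum ran over 1210.0 to 2992 in Sham, 629 to 1097 in RM and 1016 to 1361 in RM-HS. Of 5 macrophage markers, 3 rose in RM-HS medulla, with sums of 305 to 442 against 209 to 326 in Sham. Of 3 collecting duct markers, Aqp2 fell in RM and RM-HS medulla, and the 3 summed to 225 to 718 in Sham, 187 to 303 in RM and 260.5 to 376 in RM-HS. Kcnj1, a loop marker, also fell in HS medulla. The part of these markers in the falls and rises was not tested.

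**Figure D5:**
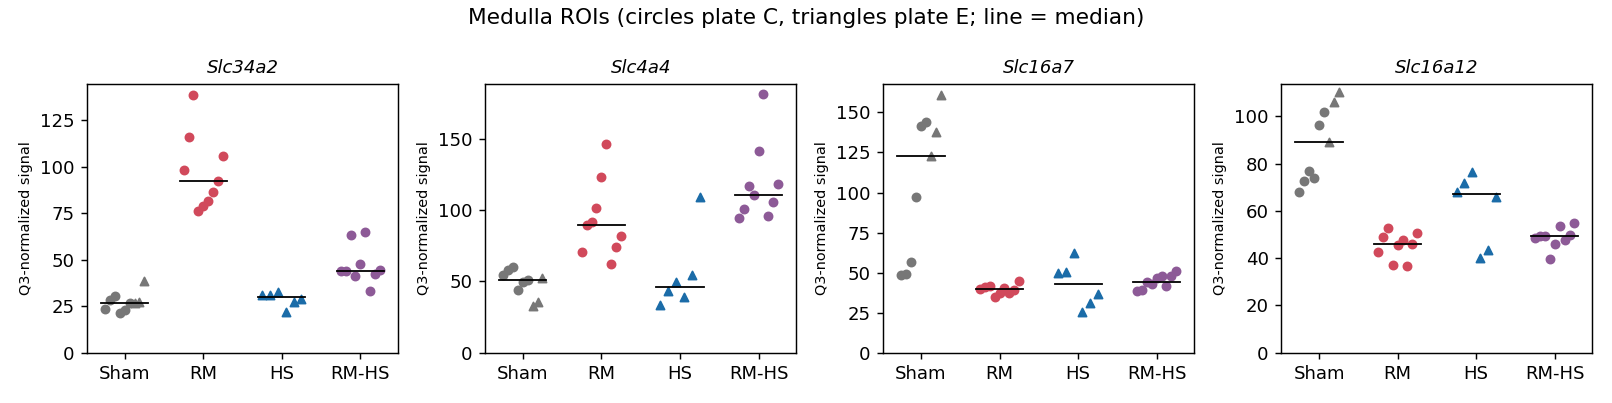
Q3-normalized signal of single medulla ROIs for 4 members in Sham, RM and RM-HS (n = 9 each) and HS (n = 6); circles are plate C, triangles plate E and black lines medians. Slc34a2 and Slc4a4 are raised in RM and RM-HS, and 3 Sham ROIs of Slc16a7 lie near the injured values.

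How many glomerular changes passed depended on the fit. RM raised 8 members and lowered 6 (10.1% and 2.76% of all genes), HS raised 7 and lowered 10 (3.97% and 5.55%) and RM-HS raised 2 and lowered 0 (5.15% and 1.46%), with 11 members lower in RM-HS at an unadjusted p under 0.05. edgeR on recovered reads passed 0 members in each, and a fit of glomerular ROIs alone passed 0 in RM, 4 in HS and 0 in RM-HS, while 36, 35 and 33 had an unadjusted p under 0.05 in the main model. In RM the largest rises were Slc38a2 (0.82 ± 0.20) and Slc6a8 (0.82), with Slc22a20 (-0.84) the largest fall, followed by Slc16a7 (-0.72) and Slc30a1, which exports zinc (-0.72). In HS, Slc9a2, a sodium-proton exchanger, read 11.6, 38.8 and 62.3 in Sham and 34.9, 67.8 and 139.6 in 5 HS ROIs, which overlapped (change 1.35 ± 0.22). Slc7a14 (-1.21) and Slc43a2, an amino acid carrier (-1.20), fell in HS. Slc9a3r1 (0.83) and Slc11a2 (0.66) were the RM-HS rises. Within plate C there were 12 rises and 19 falls in RM and 16 rises and 9 falls in RM-HS. Of all genes, 15.9% rose and 9.23% fell there in RM, and 12.1% and 6.55% in RM-HS. With log2 values averaged by well run there were 0 rises and 2 falls in RM, 6 rises and 10 falls in HS and 1 rise and 0 falls in RM-HS. Without a plate term 13, 27 and 7 members passed in RM, HS and RM-HS. Quantile normalization gave 3 rises and 6 falls in RM, 2 and 1 in HS and 4 and 2 in RM-HS.

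Single runs also moved these counts, and the named changes that did not pass without 1 run in RM were Slc16a7 (-0.69 to -0.57 without RM runs 1 or 3 or Sham run 1), Slc1a6 (-0.84 to -0.47 without RM runs 1, 2 or 3, RM-HS runs 1, 2 or 3 or Sham runs 1, 2 or 3), Slc22a20 (-0.80 to -0.75 without RM run 1 or Sham run 1), Slc23a1 (-0.59 to -0.40 without RM runs 1 or 2 or Sham runs 1 or 2), Slc2a2 (-0.64 to -0.34 without RM runs 1 or 3, RM-HS runs 1, 2 or 3 or Sham runs 1 or 2), Slc30a1 (-0.68 to -0.41 without RM run 2 or Sham runs 1 or 3), Slc3a2 (0.21 to 0.60 without RM runs 1 or 2 or Sham run 1), Slc43a3 (0.36 to 0.93 without RM runs 2 or 3, RM-HS runs 1, 2 or 3 or Sham runs 1 or 2) and Slc6a8 (0.54 to 0.84 without RM run 2 or Sham runs 1 or 3). In HS they were Slc16a14 (0.69 to 0.89 without HS run 2, RM runs 1, 2 or 3, RM-HS run 2 or Sham run 2), Slc22a15 (0.40 without Sham run 3), Slc23a1 (-0.62 without HS run 1), Slc30a7 (0.44 without Sham run 3) and Slc48a1 (0.52 to 0.63 without HS run 3 or Sham run 1). Both Slc43a3 and Slc16a14 passed the filter on low values only through the injury in which they rose: Slc43a3 was over the limit in 8 of 35 RM ROIs and 6 of 97 others, and Slc16a14 in 7 of 29 HS ROIs and 7 of 103 others. Their rises in RM (Slc43a3) and in HS (Slc16a14) are therefore given as a description only. In RM-HS they were Slc11a2 (0.47 to 0.68 without RM-HS runs 2 or 3 or Sham runs 1 or 3) and Slc9a3r1 (0.70 to 0.93 without RM runs 2 or 3, RM-HS runs 1, 2 or 3 or Sham runs 1 or 2). In RM the 14 became 7, 4, 8 and 9 without RM run 1, RM run 2, Sham run 1 and Sham run 2, and 22 and 29 without HS run 2 and HS run 3. In HS the 17 became 31, 52 and 30 without HS run 2, HS run 3 and Sham run 3. In RM-HS the 2 became 10, 21 and 6 without HS run 2, HS run 3 and Sham run 3, and 1 without RM run 2, RM run 3, RM-HS run 2 or Sham run 1. Cell type markers moved in these ROIs too. Of 2 measured endothelial markers, Flt1 rose in all 3 injuries and Cdh5 in RM-HS, and their sum was 58.2 to 130.9 in Sham, 136 to 233 in RM, 58.2 to 192 in HS and 116 to 244 in RM-HS. Of 6 podocyte markers, Synpo rose in RM, and Wt1 rose and Podxl fell in HS, and the 6 summed to 389.7 to 1367 in Sham, 685 to 1249 in RM, 407 to 1483 in HS and 508 to 989 in RM-HS. Among macrophage markers Cd74 rose in RM and C1qa in RM-HS, the proximal tubule marker Fbp1 and the loop marker Slc12a1 fell in HS, and the skeletal muscle marker Acta1 rose in RM-HS. The part of these markers in the members' changes was not tested.

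Few members passed in HS outside the glomeruli in the main fit. On the average over areas 1 member fell and 0 rose, and the fall was Slc16a7 (-0.86 ± 0.20, with 4 of 29 ROIs above the Sham mean), where 0.0453% of all genes fell and 0.125% rose. Slc13a1, the apical sulfate transporter of the proximal tubule, was the 1 rise in cortex (0.0793% of genes rose and 0% fell). It read 48.9, 62.0 and 94.1 in Sham and 74.0, 97.6 and 241 in HS (change 1.06 ± 0.23, adjusted p = 0.0145), and it did not pass without HS run 3 (0.58) or Sham run 1 or 2 (up to 1.02). At the junction 0 members passed in limma (0.215% of genes rose and 0.068% fell), 10 were higher and 7 lower at an unadjusted p under 0.05, and edgeR passed 15 rises and 6 falls. In medulla 0 rose and 1 fell (Slc16a7), against 0.0453% and 0.329% of genes, with 4 higher and 6 lower at an unadjusted p under 0.05. In cortex and on the average those unadjusted counts were 10 and 2, and 8 and 8. By edgeR, cortex had 18 rises and 2 falls, medulla 2 and 4, and the average 1 and 1.

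Plate E held all HS ROIs and, of Sham, only the third run. Without it, and then without a plate term, the HS counts were 14 on the average, 13 in cortex and 6 at the junction. Without HS run 3 they were 11, 0 and 1, and 6 in medulla. Without HS run 2 they were 3, 6, 4 and 0, and without HS run 1 the medulla count was 2. The cortex count was also 0 without Sham run 1 or Sham run 2, and the average count 0 without RM run 3 or RM-HS run 2. The HS groups were also shallower, with a median of 561505 reads at the junction against 1089340 in Sham.

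Whether a change differed between areas was tested directly, with an F test on the 4 area changes of each injury. It passed for 22 members in RM, 30 in HS and 18 in RM-HS, where 9.72%, 13.6% and 7.51% of all genes passed. Without RM run 1 the RM count was 11, and with log2 values averaged by well run 4, 2 and 0 members passed in RM, HS and RM-HS. The lowest p-values in RM belonged to Slc26a1, Slc5a8, Slc2a2 and Slc16a12. Slc26a1 changed by 2.14 at the junction, 0.63 in cortex, -0.20 in glomeruli and -0.13 in medulla (adjusted p of the difference 4.2e-15). Slc5a8 changed by 1.88, 0.09, 0.0 and -0.08 in the same order (adjusted p = 1.83e-09). For Slc2a2 the junction change of 0.91 faced -0.55 in glomeruli. In RM-HS the leading genes were Slc5a8, Slc3a2, Slc26a1 and Slc4a4. For Slc38a2 the RM changes of 0.95, 1.19, 0.82 and 1.30 in cortex, junction, glomeruli and medulla each passed, and the test of their difference did not (adjusted p = 0.414). Slc7a11 likewise gave an adjusted p of 0.134 in RM.

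Followed by their Sham area, the mapped members mostly did not pass in their own area. In cortex 1 of 8 cortical members rose in RM and in RM-HS (Slc4a4 in both) and 0 fell, with median changes of 0.22 and 0.08, where 5.27% and 3.58% of all genes rose in cortex. Slc22a8 (0.64 ± 0.30 in RM), Slc12a3 (0.27 ± 0.25) and Slc5a2 (0.30 ± 0.25) did not pass. At the junction 1 of 10 junction members rose (Slc17a3) and 2 fell in RM (Slc15a2 and Slc23a1), 3 fell in RM-HS (those and Slc6a18) and 0 passed in HS, where 4.86% of all genes rose and 0.782% fell in RM and 0.997% fell in RM-HS. Slc22a2 read 291, 406 and 534 in Sham, 385, 487 and 596 in RM and 325, 497 and 580.3 in RM-HS, and these overlapped. Its changes of 0.21 ± 0.20 and 0.11 ± 0.20 did not pass, nor did those of Slc38a3 (0.32 ± 0.24 and 0.02 ± 0.24) and Slc7a12 (-0.24 ± 0.22 and -0.27 ± 0.22). In medulla Slc16a7 fell and Slc4a7 did not pass (0.16 ± 0.24 in RM and 0.67 ± 0.24 in RM-HS), and the glomerular Slc44a2 passed in no injury. With the same map within plate C, 3 of 8 cortical members rose and 0 fell in each of RM and RM-HS. Of 10 junction members there, 2 rose and 2 fell in RM, and 0 rose and 3 fell in RM-HS. In RM-HS medulla Slc4a7 rose within plate C (0.86), where 5.88% of all genes rose and 1.78% fell. The same Sham ROIs made the map and served as controls, so the map and the changes were not independent. With the map from Sham run 3 and the changes from plate C, which share no ROI, 5 of 15 cortical members rose and 0 fell in RM (6 and 0 in RM-HS), and 2 of 11 junction members rose and 3 fell (0 and 4). In plate C, 9.65% of all genes rose and 1.13% fell in RM cortex and 7.74% and 0.997% in RM-HS cortex. At the junction 7.9% rose and 2.78% fell in RM, and 7.84% and 2.75% in RM-HS. The map from Sham run 3 and these shares were not compared by a test.

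Members were also sorted by family into classes, whose counts stand beside 7.52% of all genes rising and 0.782% falling in the RM average and 5.99% and 0.838% in RM-HS. With so few members per class, the counts show nothing particular to a class. The class of amino acids, peptides and creatine (41 members, which by family include Slc7a6os and Slc43a3) held 4 rises and 0 falls in the RM average (Slc38a2, Slc3a2, Slc6a8 and Slc7a11) and 3 and 0 in RM-HS, though their median change was -0.10 and -0.06. The 14 members of the monocarboxylate, fatty acid and choline families held 2 falls in RM and 1 in RM-HS, and 0 rises. The 27 members for inorganic ions and acid-base transport by family include Slc9a3r1, which encodes a scaffold protein. Of them 1 rose in RM (Slc26a1) and 3 in RM-HS (Slc9a3r1, Slc26a1 and Slc4a4). Of 15 for metals Slc39a14 rose in each. The 25 organic ion and drug transporters and the 19 carriers of nucleosides and nucleotide sugars had 0 changes that passed in either average. The sugar class of 16 held Slc5a8, sorted there with its SLC5 family although it carries monocarboxylates, and its 2 rises in RM-HS were Slc5a8 and Slc2a1, with 0 in RM. Of 28 proximal tubule transporters 1 rose in the RM average and 3 rose and 1 fell in RM-HS, and at the junction 4 rose and 2 fell in RM (Slc26a1, Slc5a8, Slc17a3 and Slc2a2 against Slc15a2 and Slc23a1), where 4.86% of all genes rose and 0.782% fell. Of 14 loop, distal and collecting duct transporters Slc16a7 was the 1 change in each average. Of 11 stress-inducible and nutrient-response transporters 3 rose and 0 fell in RM (Slc38a2, Slc3a2 and Slc7a11), with a median of 0.17, and 3 in RM-HS (Slc38a2, Slc3a2 and Slc2a1), with a median of 0.30. Slc7a11, counted here and in its class, passed the filter on low values mainly through RM and RM-HS. Of 8 iron, heme, zinc and copper transporters Slc39a14 rose in both.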

How the data were processed

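Spatial profiles of 132 ROIs of rat kidney were read with mouse whole-transcriptome probes on the GeoMx platform and sequenced on an Illumina NovaSeq, per the labels' protocols. The authors deposited 1 table of Q3-normalized signal, each ROI scaled to its 75th percentile. The submitters' processing notes name GRCh38 and hg38, and no source used here names the software. Whole reads recovered from the deposited signal came out whole for 100% of values within 1e-04, and gave the depths. Of 8646 ROI pairs none was identical. Intervals were not computed for depth, which limits low genes most.

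The main test was limma 3.58.1 (R 4.3.3) on log2(value + 1), since the values are not counts, so a fold change understates that of low genes. It fitted 16 group and area means and a plate term to 131 ROIs, with a trended empirical Bayes step. The well run was a random block (statmod 1.5.0, consensus correlation 0.132). There were 12 well runs, 3 per condition, not stated to be animals. Each was a run of neighbouring wells except RM-HS run 3. Its medulla wells lay apart from its other wells, with Sham wells between them, and the labels do not join these parts. Leaving out RM-HS run 3 removed both parts. Benjamini-Hochberg adjustment ran over 8827 genes over 2 times the negative probe in 10% of ROIs, with a threshold of 0.05. Nothing says that ROIs of a group come from separate animals. The p-values therefore measure the spread between these ROIs and, through the random block, their well runs, and not a known spread between rats. Leaving out Sham run 3 removed the plate term. Alternatives were edgeR 4.0.16 on recovered reads, quantile normalization, a pseudocount of 5, no filter, no plate term, plate C alone, means per run, a separate fit per area and each run left out. The model was tested on simulated data. The members, gene lists and markers were chosen with earlier results of these data known. Named genes were the widest leads per area in the Sham map, the largest changes that passed per injury, area and gene list, the lowest p-values of the area test, the rows next to the filter, and a few kidney transporters named throughout. Outside that rule, Slc16a4, Slc17a3, Slc1a5, Slc2a13, Slc47a1, Slc6a19, Slc6a6, Slc7a6os and Slc8a1 were named after their values were seen. A cortical member and a podocyte marker are not reported here by name. Promoter windows came from RefSeq, build GRCr8.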

Additional observations from a re-analysis of the deposited data

Results flagged for a closer look

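Of 60 groups of 4 to 10 ROIs examined for a single distant value, 2 had one, where chance gives about 1 in 20. In RM junction the lowest Slc26a1 ROI, from RM run 2, read 138 and the next 196. In HS medulla the highest Slc4a4 ROI, from HS run 2, read 109 and the next 54.5. Changes in RM differed between areas, by the F test in limma, with adjusted p = 4.2e-15 for Slc26a1, 1.83e-09 for Slc5a8, 3.59e-08 for Slc2a2 and 5.54e-07 for Slc16a12. Changes in HS differed between areas, by the F test in limma, with adjusted p = 7.76e-07 for Slc9a2, 2.77e-05 for Slc23a1, 0.000234 for Slc43a2 and 0.000354 for Slc16a14. Changes in RM-HS differed between areas, by the F test in limma, with adjusted p = 1.03e-08 for Slc5a8, 1.35e-05 for Slc3a2, 2.19e-05 for Slc26a1 and 8.83e-05 for Slc4a4. In HS, Slc9a2 changed by 1.35 in glomeruli and 0.06 at the junction, Slc23a1 by -0.96 and 0.41, Slc43a2 by -1.20 and -0.25, and Slc16a14 by 0.88 and -0.61. All 4 rest on 5 glomerular ROIs of HS. By edgeR on recovered reads none of these 4 glomerular changes passed. In a fit of glomerular ROIs alone, those of Slc23a1, Slc43a2 and Slc16a14 did not pass. After quantile normalization, those of Slc23a1 and Slc16a14 did not pass. Slc16a14 passed the filter on low values through HS ROIs (7 of 29 over the limit, against 7 of 103 others), so its HS values are a description.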

How the results depend on the processing

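Counts of members that passed are given for the average, cortex, junction, glomeruli and medulla in that order. They were 9, 7, 14, 14 and 8 in RM, 1, 1, 0, 17 and 1 in HS and 11, 5, 14, 2 and 7 in RM-HS, and none of the 99 named changes reversed sign under any alternative. With edgeR on recovered reads they were 61, 36, 40, 0 and 44 in RM, 2, 20, 21, 0 and 6 in HS and 39, 29, 46, 0 and 36 in RM-HS. With quantile normalization they were 27, 21, 21, 9 and 17 in RM, 1, 2, 1, 3 and 2 in HS and 28, 27, 21, 6 and 17 in RM-HS. With log2 values averaged by run they were 14, 1, 10, 2 and 4 in RM, 1, 0, 0, 16 and 0 in HS and 11, 0, 8, 1 and 3 in RM-HS. With no plate term they were 11, 7, 14, 13 and 10 in RM, 7, 6, 6, 27 and 2 in HS and 12, 5, 14, 7 and 8 in RM-HS. Within plate C they were 40, 19, 23, 31 and 14 in RM and 32, 15, 19, 25 and 15 in RM-HS. A separate fit per area gave, from cortex on, 10, 14, 0 and 22 in RM, 0, 2, 4 and 6 in HS and 8, 15, 0 and 16 in RM-HS. The test of area differences passed 22, 30 and 18 members in RM, HS and RM-HS, 4, 2 and 0 with values averaged by run, 29, 18 and 32 after quantile normalization, and 33 in RM-HS within plate C. Members higher in cortex, junction, glomeruli and medulla of injured kidneys numbered 72, 40, 10 and 35, then 45, 35, 7 and 14 with values averaged by run and 45, 41, 36 and 34 after quantile normalization. The Sham map placed 21 members, 10 with a lead of 2-fold and 37 from Sham run 3 alone. Without 1 well run at a time, the RM counts ranged over 3 to 35, 2 to 12, 8 to 18, 4 to 29 and 4 to 11, and its area differences over 11 to 27. Without 1 well run at a time, the HS counts ranged over 0 to 14, 0 to 13, 0 to 6, 14 to 52 and 0 to 6, and its area differences over 24 to 43. Without 1 well run at a time, the RM-HS counts ranged over 2 to 28, 0 to 8, 9 to 17, 1 to 21 and 2 to 10, and its area differences over 12 to 23. Those of the map in injured ROIs ranged over 62 to 79, 37 to 42, 5 to 13 and 26 to 37. Of the 99 named changes, 29 passed without each run. A pseudocount of 5 and no filter on low values kept every count above within 1.5 times. The cause of the moved counts was not tested. Shares of all genes under the same settings are not set beside these counts, so a moved count is not a result about the members. No paired analysis was possible because the labels give no replicate numbers that groups share. Glomerular depth and signals near the negative probe limit what could be detected.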
